A study of Mus musculus with 6 samples.

Results

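Expression of 10 genes that mark the macrophages of dorsal root ganglia (DRGs) was compared in naïve mice with and without a deletion of *Hdac4* aimed at their nociceptors. They were listed by name (*Cx3cr1*, *Csf1r*, *Cd68*, *Aif1*, *Mrc1*, *Cd163*, *Lyve1*, *Ccr2*, *Ctss* and *C1qa*), not by a threshold on their values, and all 10 of 10 were found among the 22180 genes that have a probe set of their own. Lumbar DRGs were taken from adult (2 mo old) C57Bl/6 mice. The wild-type group (WT, HDAC4 fl/fl, n = 3) carries the floxed alleles without their deletion, and the knockout group (HDAC4 Nav1.8 cKO, n = 3) carries the same alleles together with Nav1.8-Cre. Nav1.8-Cre acts in sensory neurons, chiefly nociceptors, from embryonic life onward. The deletion is therefore not aimed at macrophages, and the markers were read in the whole ganglion around the deleted neurons. Whether each of the 6 arrays holds a separate animal is not stated, so that p values measure the spread between samples only.

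Macrophages live among the neuronal cell bodies, along the axons and around the vessels of the ganglion. They depend on the CSF1 receptor for survival, sense neurons through the fractalkine receptor CX3CR1 and clear debris with scavenger receptors and lysosomal proteases. After nerve injury they multiply and are joined by blood monocytes, which follow the chemokine CCL2 through its receptor CCR2. In naïve ganglia, as here, no injury was made, and the animals were perfused with PBS before dissection according to the methods of the study. In samples of whole tissue, a smaller number of macrophages and less RNA per macrophage cannot be told apart.

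Values are robust multichip average (RMA) signals on the log2 scale. A difference is the cKO mean minus the WT mean, given as log2 fold change with its standard error (SE) from limma. Each marker is read by 1 probe set. No detection calls were used, and the array medians lay between 6.43 and 6.5. The signals of *Aif1*, 6.36 to 6.66, were at that level, and those of the other 9 markers were between 6.77 and 8.91. Sensory neuron genes of the same arrays (*Scn10a*, *Tubb3*, *Prph* and 4 others) read 10.21 to 12.49 and were thus present in every sample. *Hdac4* itself read 9.22, 9.49 and 9.19 in WT and 9.17, 9.14 and 9.21 in cKO DRGs, and differed by -0.13 on the log2 scale (SE 0.10, adjusted p = 0.776 from limma). The exons its probe set covers are not given, so this value does not check the deletion. The study itself reports lower *Hdac4* mRNA in cKO DRGs by quantitative PCR, at floxed and other exons, and lower HDAC4 protein by Western blot. The sexes of the groups differed: *Xist*, expressed from the inactive X chromosome, read 11.60 to 11.74 in the WT arrays and cKO replicate 1, and 6.67 and 5.95 in cKO replicates 2 and 3. The Y-linked gene *Uty* read 9.26 and 9.01 in the latter pair and 4.31 to 4.59 elsewhere. The methods of the study describe groups matched for sex, which these signals go against. Skeletal muscle genes were also unequal, with a mean of 8 genes between 6.56 and 8.31 in WT and between 8.27 and 9.01 in cKO samples. The part of sex and of muscle tissue in the results on single markers was not tested, beyond the values with sex as a covariate given below. Those values compare cKO replicate 1 alone with the WT samples, since both other cKO samples have high *Uty*.

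The RefSeq promoters of the markers, from 250 bases before to 50 bases after the start of transcription (build GRCm38.p6), were read because PU.1, the macrophage transcription factor encoded by *Spi1*, binds purine-rich sites in many genes of this lineage. The letters GAGGAA, a core of such sites, were searched on both strands. A promoter was at hand for 7 of the 10 markers, and 4 of these (*Mrc1*, *Cd68*, *Ctss* and *Aif1*) hold a match, 3 of them more than 1. Of all 32851 promoters in that set, 28.3% hold a match and 4.82% hold 2 or more. The 3 promoters with several matches are shown 5′ to 3′ on the strand of the gene, together with that of *Cx3cr1*, the marker with the largest difference between the groups, which has none. Capitals mark GAGGAA or its reverse complement, TTCCTC. A match is a description of letters and not a measured binding site. *Mrc1* lies on the plus strand at chr2:14229164-14229463, *Cd68* on the minus strand at chr11:69666121-69666420, *Ctss* on the plus strand at chr3:95526536-95526835 and *Cx3cr1* on the minus strand at chr9:120068247-120068546 (promoter windows).
Mrc1: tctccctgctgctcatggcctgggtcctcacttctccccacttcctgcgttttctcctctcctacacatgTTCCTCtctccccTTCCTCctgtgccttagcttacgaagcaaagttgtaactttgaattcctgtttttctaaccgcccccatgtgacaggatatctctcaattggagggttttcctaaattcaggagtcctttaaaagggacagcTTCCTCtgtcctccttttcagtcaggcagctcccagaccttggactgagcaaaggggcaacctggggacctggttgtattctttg
Cd68: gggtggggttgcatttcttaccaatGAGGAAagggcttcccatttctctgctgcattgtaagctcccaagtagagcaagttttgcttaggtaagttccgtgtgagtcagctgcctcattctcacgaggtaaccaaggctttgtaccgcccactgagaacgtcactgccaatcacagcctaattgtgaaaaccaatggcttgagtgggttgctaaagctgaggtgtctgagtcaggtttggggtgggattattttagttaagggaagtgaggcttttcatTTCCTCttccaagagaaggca
Ctss: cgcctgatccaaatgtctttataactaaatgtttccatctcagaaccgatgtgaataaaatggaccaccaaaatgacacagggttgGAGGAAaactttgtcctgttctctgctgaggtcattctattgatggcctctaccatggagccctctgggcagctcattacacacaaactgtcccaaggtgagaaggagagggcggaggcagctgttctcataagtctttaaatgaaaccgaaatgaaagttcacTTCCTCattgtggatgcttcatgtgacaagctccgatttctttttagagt
Cx3cr1: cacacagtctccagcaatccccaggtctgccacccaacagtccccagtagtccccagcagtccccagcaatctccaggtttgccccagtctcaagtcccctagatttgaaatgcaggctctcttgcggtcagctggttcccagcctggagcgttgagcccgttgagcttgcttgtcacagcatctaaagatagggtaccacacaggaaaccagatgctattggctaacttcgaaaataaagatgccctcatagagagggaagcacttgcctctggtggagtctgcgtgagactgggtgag

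No macrophage marker passed the test. The log2 fold changes of the 10 genes lay between -0.13 and 0.16, with 6 above and 4 below 0 (50.7% of all genes were above 0) and a median of 0.01, where the median of all genes was 0.00. By limma, 0 of 10 had an adjusted p under 0.05 (0 of 41345 probe sets, 0%, did), and 0 of 10 had an unadjusted p under 0.05 (5.48% of all genes did). The smallest unadjusted p was 0.177. The WT and cKO signals overlapped for all 10 markers, whereas they did not overlap for 13.7% of all genes. Exact permutation tests, which cannot give a p under 0.1 with these arrays, gave p values from 0.2 upward.

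**Figure D1:**
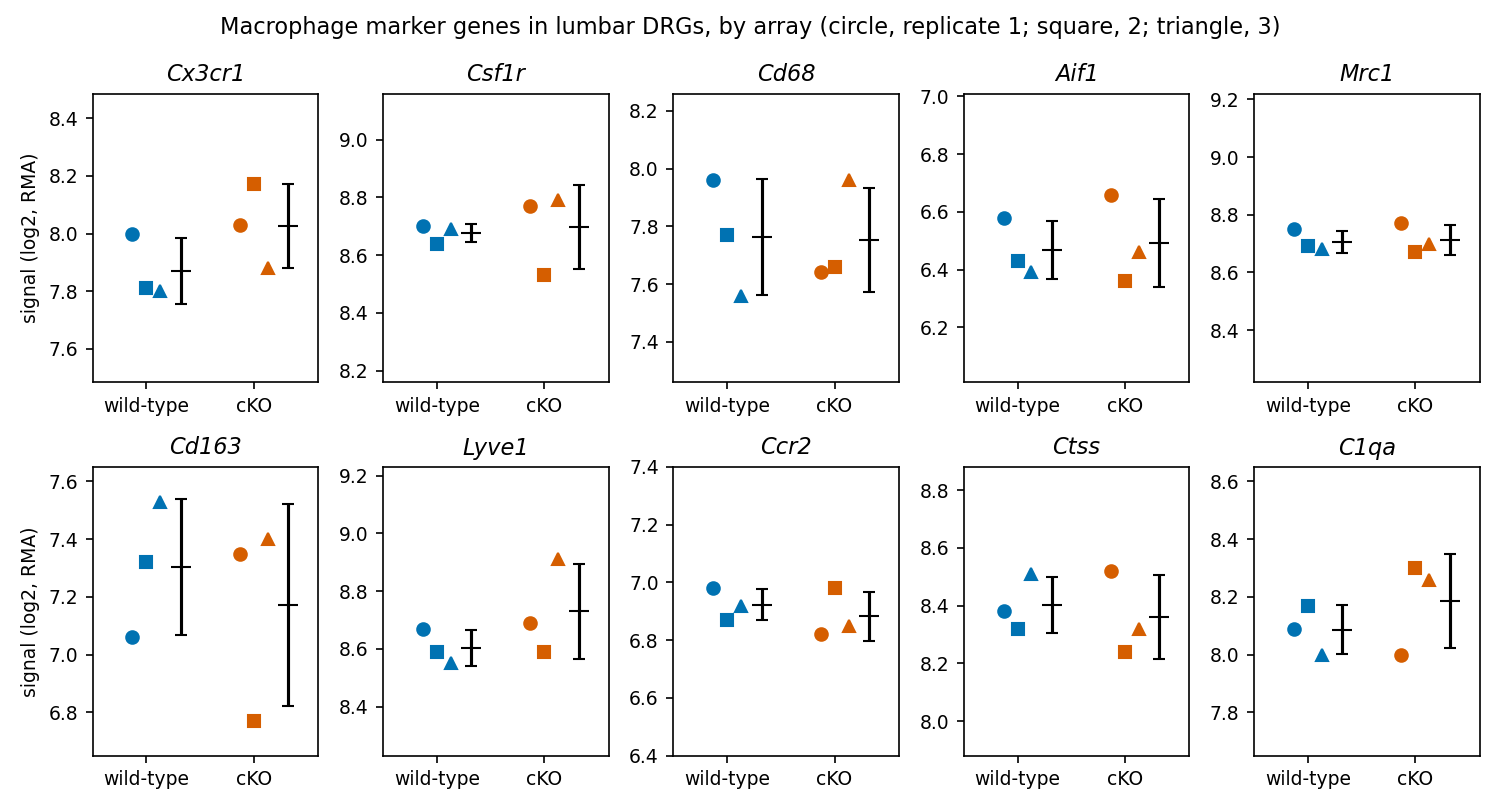
Signal (log2, RMA) of the 10 macrophage marker genes in 3 WT (blue) and 3 cKO (orange) samples, with the group mean and SD in black. Every vertical axis spans 1 log2 unit, and in each panel the cKO points lie partly within the WT range or the reverse, most widely spread for *Cd163* (6.77 to 7.53) and most tightly for *Mrc1* (8.67 to 8.77).

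Receptors that tie macrophages to growth factors and chemokines came first. *Csf1r*, the receptor for CSF1 and IL-34 on which macrophage survival depends, read 8.70, 8.64 and 8.69 in WT and 8.77, 8.53 and 8.79 in cKO DRGs. The WT values thus lie inside the cKO range, with the highest and the lowest sample both in the cKO group. Its log2 fold change was 0.02 (SE 0.09, 95% CI -0.20 to 0.24, adjusted p = 0.969 from limma). On a linear scale the CI runs from 0.871 to 1.18 times WT.

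*Cx3cr1*, which encodes the receptor for the neuronal chemokine fractalkine, read 8.0, 7.81 and 7.80 in WT and 8.03, 8.17 and 7.88 in cKO DRGs. This was the largest difference among the markers, and cKO replicate 3 was below WT replicate 1. The log2 fold change was 0.16 (SE 0.10, 95% CI -0.09 to 0.41, adjusted p = 0.747 from limma, exact permutation p = 0.2), or 1.11 times WT with a CI of 0.938 to 1.32. It was 0.085 without cKO replicate 2, where *Lyve1* (0.20), *Csf1r* (0.10), *Aif1* (0.093) and *Ccr2* (-0.088) were larger in size. Without cKO replicate 3, the log2 fold change of *Cx3cr1* was 0.23. With sex as a covariate it was 0.16 (SE 0.15). *Ccr2*, the receptor by which monocytes leave the marrow and enter tissue, read 6.98, 6.87 and 6.92 in WT and 6.82, 6.98 and 6.85 in cKO DRGs. The highest value occurred in both groups. Its log2 fold change was -0.04 (SE 0.08, 95% CI -0.22 to 0.14, adjusted p = 0.912 from limma).

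The ligands of these 3 receptors were measured by 6 genes, which all had positive log2 fold changes (median 0.08), where 50.7% of all genes were positive. By limma, 0 of 6 had an adjusted or an unadjusted p under 0.05. *Ccl12*, which encodes a CCR2 ligand of mice, read 5.01, 5.03 and 4.70 in WT and 5.07, 5.34 and 5.13 in cKO samples, at a log2 fold change of 0.27 (SE 0.12, adjusted p = 0.686 from limma). Its groups did not overlap, unlike those of the other ligand genes (13.7% of all genes did not overlap), and its signal was far below the array medians. It was at 0.16 without WT replicate 3 and at 0.16 with sex as a covariate. The CSF1 gene, *Csf1*, was at 0.08 (SE 0.07), the chemokine gene *Ccl7* at 0.13 (SE 0.11) and the fractalkine gene *Cx3cl1* at 0.08 (SE 0.11). The CCL2 gene, *Ccl2*, was at 0.03 (SE 0.18) and the IL-34 gene, *Il34*, at 0.02 (SE 0.09).

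Scavenger and endocytic receptors of resident macrophages were the next group. *Mrc1*, the mannose receptor gene, read 8.75, 8.69 and 8.68 in WT and 8.77, 8.67 and 8.70 in cKO DRGs. All 6 samples lay within 0.10 of each other, the narrowest range of the 10 markers. The log2 fold change was 0.01 (SE 0.07, 95% CI -0.16 to 0.17, adjusted p = 0.987 from limma), so that the CI lay between 0.897 and 1.13 times WT.

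*Cd163*, which encodes the receptor for hemoglobin bound to haptoglobin, read 7.06, 7.32 and 7.53 in WT and 7.35, 6.77 and 7.40 in cKO DRGs. It was the most variable marker. Among all genes 3.41% had a larger standard error than its 0.20, and cKO replicate 2 had the lowest value. The log2 fold change was -0.13 (95% CI -0.61 to 0.35, adjusted p = 0.884 from limma). It was 0.07 without cKO replicate 2 and 0.05 with sex as a covariate, and its sign turned in both settings. Both settings leave the low cKO replicate 2 out of the difference, so they are not separate checks. The linear CI, 0.654 to 1.28 times WT, was the widest of the 10.

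*Lyve1*, a hyaluronan receptor gene of perivascular macrophages and of lymphatic endothelium, read 8.67, 8.59 and 8.55 in WT and 8.69, 8.59 and 8.91 in cKO DRGs. A cKO sample, replicate 3, was the highest, and cKO replicate 2 had the same value as WT replicate 2. The log2 fold change was 0.13 (SE 0.10, 95% CI -0.11 to 0.37, adjusted p = 0.781 from limma) and 0.04 without cKO replicate 3. Of 5 measured lymphatic endothelial genes, such as the transcription factor gene *Prox1* and the receptor gene *Flt4*, 0 had an unadjusted p under 0.05. Their mean signal was 7.24 to 7.32 in WT and 7.25 to 7.42 in cKO samples, lowest among the cKO samples in replicate 3. The signals of *Prox1*, 5.47 to 6.07, and *Mmrn1*, 5.23 to 5.62, were below the array medians, which limits what they can show.

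Of 11 other genes of perivascular and resident macrophages, 0 passed limma at an adjusted or unadjusted p under 0.05, with 7 positive and 3 negative log2 fold changes (median 0.05). The scavenger receptor gene *Stab1* read 8.47, 8.43 and 8.39 in WT and 8.54, 8.51 and 8.59 in cKO samples. Its log2 fold change was 0.12 (SE 0.07, adjusted p = 0.715 from limma). It was the only gene of the 11 without overlap between the groups, where 13.7% of all genes did not overlap. The lectin gene *Mgl2* was at 0.21 (SE 0.14), *Ms4a7* at -0.22 (SE 0.18) and the complement receptor gene *Vsig4* at 0.07 (SE 0.07). The signal of *Vsig4*, 4.45 to 4.63, was far below the array medians. Without WT replicate 1, *Mgl2* was at 0.08 and *Ms4a7* at -0.02.

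**Figure D2:**
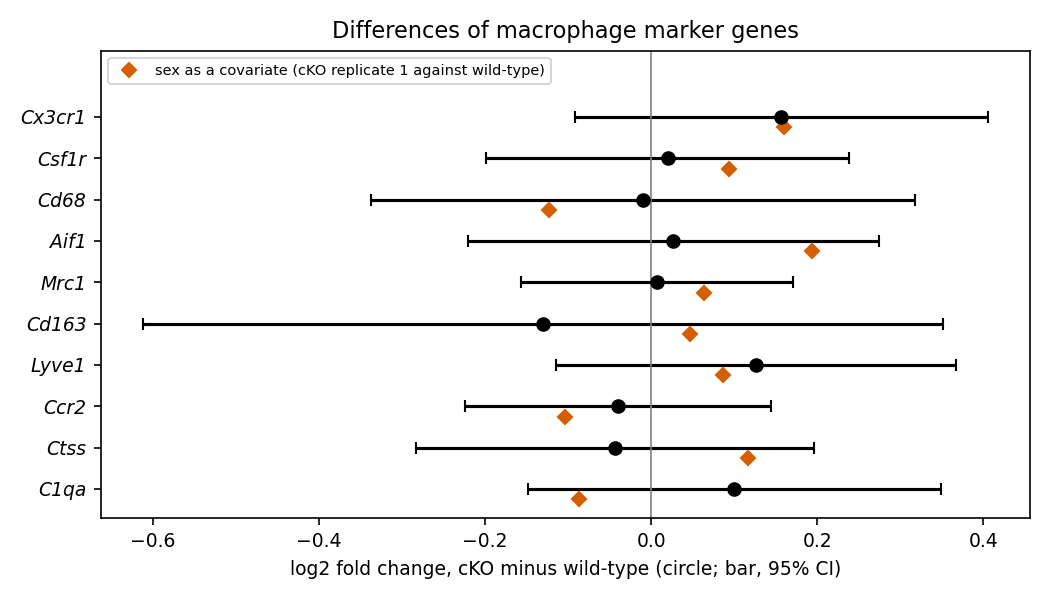
Log2 fold change (cKO minus WT, horizontal axis) of each macrophage marker with its 95% CI from limma (black), and the same value with sex as a covariate (orange diamonds). The diamonds compare cKO replicate 1 alone with the WT samples. All 10 intervals include 0, and that of *Cd163*, -0.61 to 0.35, is the widest.

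Lysosomal and cytoplasmic proteins of macrophages are encoded by 3 of the markers. *Cd68*, a lysosomal membrane glycoprotein gene widely used to stain macrophages, read 7.96, 7.77 and 7.56 in WT and 7.64, 7.66 and 7.96 in cKO DRGs. Both groups reached the same highest value and spread over similar ranges, 0.40 in WT and 0.32 in cKO samples. Its log2 fold change was -0.01 (SE 0.14, 95% CI -0.34 to 0.32, adjusted p = 0.990 from limma).

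*Ctss*, the gene of cathepsin S, a protease that frees fractalkine from neuronal membranes in the spinal cord and trims the class II invariant chain, read 8.38, 8.32 and 8.51 in WT and 8.52, 8.24 and 8.32 in cKO DRGs. The highest and the lowest value were both cKO values. The log2 fold change was -0.04 (SE 0.10, 95% CI -0.28 to 0.20, adjusted p = 0.932 from limma) and 0.12 with sex as a covariate (SE 0.11). *Aif1*, the gene of the actin-binding protein IBA1, read 6.58, 6.43 and 6.39 in WT and 6.66, 6.36 and 6.46 in cKO DRGs. Here too the extremes were cKO samples. Its log2 fold change was 0.03 (SE 0.10, 95% CI -0.22 to 0.27, adjusted p = 0.963 from limma), and 0.19 with sex as a covariate (SE 0.12), the largest value of a marker in that setting. The corresponding values of *Csf1r*, *Cd68*, *Mrc1*, *Lyve1* and *Ccr2* were 0.09, -0.12, 0.06, 0.09 and -0.10.

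Among 11 further lysosomal genes, which neurons and glia express as well, 0 passed at an adjusted p under 0.05 by limma, and 1 was lower at an unadjusted p under 0.05. This was *Ctsh*, a cathepsin gene, at 8.33, 8.47 and 8.46 in WT and 8.25, 8.22 and 8.12 in cKO samples, a log2 fold change of -0.22 (SE 0.08, adjusted p = 0.647 from limma). The unadjusted p of 0.0256 became 0.169 with sex as a covariate, 0.0849 without WT replicate 2, 0.0753 without WT replicate 3 and 0.0718 without cKO replicate 3. The groups of *Ctsh* did not overlap, nor did those of the cathepsin genes *Ctsc* at -0.17 (SE 0.08) and *Ctsd* at 0.11 (SE 0.07), which differ in sign (13.7% of all genes did not overlap). With sex as a covariate *Ctsc* was at -0.07 and *Ctsd* at 0.03. The lysosomal membrane gene *Lamp1* was at 0.07 (SE 0.08). The median of the 11 was 0.01.

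Complement C1q, which tags debris and synapses for uptake, is built of 3 chains. *C1qa* read 8.09, 8.17 and 8.0 in WT and 8.0, 8.30 and 8.26 in cKO DRGs. Replicates 2 and 3 of the cKO group were the highest samples, and cKO replicate 1 equaled the lowest WT sample. The log2 fold change was 0.10 (SE 0.10, 95% CI -0.15 to 0.35, adjusted p = 0.826 from limma). With sex as a covariate it was -0.09 (SE 0.10). The 2 samples with the highest *C1qa* are also those with high *Uty*, so that genotype and sex cannot be told apart there. Without cKO replicate 1, the groups did not overlap and the log2 fold change was 0.19, where 31.8% of all genes did not overlap.

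The genes of the other chains were at 0.18 (*C1qb*, SE 0.09) and 0.06 (*C1qc*, SE 0.07, named as the remaining chain after its value was seen). *C1qb* read 9.44, 9.34 and 9.27 in WT and 9.51, 9.41 and 9.66 in cKO samples, with 1 cKO sample inside the WT range. Its adjusted p was 0.703 from limma, and with sex as a covariate it was at 0.16 (SE 0.14). The complement receptor genes *C3ar1* at -0.11 (SE 0.10) and *C5ar1* at 0.13 (SE 0.14) and the complement component gene *C4b* at 0.12 (SE 0.14) differed in sign. Of these 5 genes beside *C1qa*, 0 had an unadjusted p under 0.05, and their median was 0.12.

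The markers did not all deviate together from sample to sample. Averaged over the 10 genes, the signal was 7.92, 7.86 and 7.86 in WT and 7.93, 7.83 and 7.95 in cKO DRGs, and the cKO samples were thus both the highest and the lowest. In cKO replicate 2, 5 of 10 markers (*Csf1r*, *Aif1*, *Mrc1*, *Cd163* and *Ctss*) had their lowest value and 3 (*Cx3cr1*, *C1qa* and, tied with WT replicate 1, *Ccr2*) their highest. Over all genes this sample was the lowest for 18.8% and the highest for 15.8%. WT replicate 2 was neither the highest nor the lowest for any marker.

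**Figure D3:**
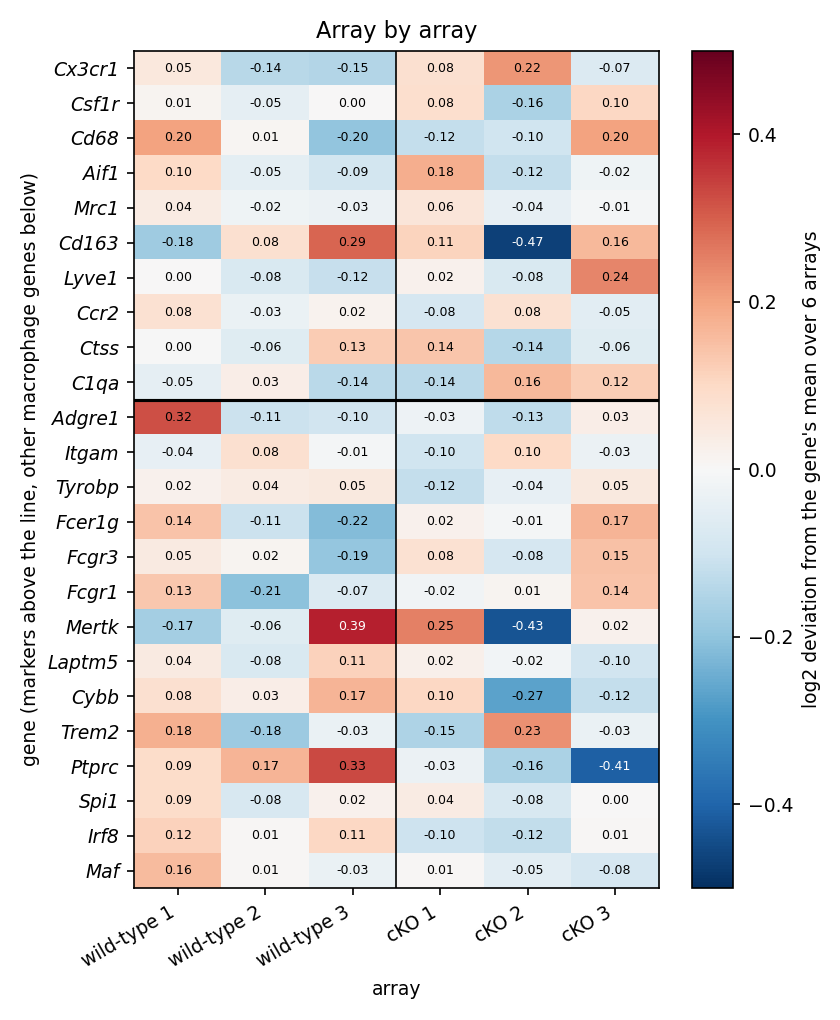
Deviation of each gene (rows) from its own mean over the 6 samples (columns), on the log2 scale, for the 10 markers and 14 other macrophage genes. The lowest cell among the markers is *Cd163* in cKO replicate 2, and *Ptprc* is lower in each cKO than in each WT sample (13.7% of all genes did not overlap).

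The genes whose signal over the 6 samples was most like the mean of the 10 markers were *Pkdcc* (Pearson r = 0.993), *Abcc1* (0.980), *Txnrd2* (0.980), *Adamtsl1* (0.976) and *Ptpro* (0.967), out of 11080 genes above the median signal. They were picked as the highest of many correlations over 6 samples that share 1 normalization. Of 9 pan-macrophage genes above the median signal, the closest was the Fc receptor subunit gene *Fcer1g* (r = 0.705), at place 609. *Adgre1* (0.582), *Mertk* (0.337), *Cybb* (0.247) and *Maf* (0.163) were also positive. *Itgam* (-0.813), *Ptprc* (-0.452) and *Trem2* (-0.267) were negative, and *Tyrobp* was at -0.031.

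Beside the 10 markers, 14 pan-macrophage genes had 10 negative and 4 positive log2 fold changes (median -0.07). By limma 0 of 14 had an adjusted p under 0.05, and 1 was lower at an unadjusted p under 0.05, *Ptprc*, which encodes the leukocyte phosphatase CD45. It read 7.65, 7.73 and 7.89 in WT and 7.53, 7.40 and 7.15 in cKO DRGs. Its groups did not overlap, unlike those of the other pan-macrophage genes (13.7% of all genes did not overlap). The log2 fold change was -0.40 (SE 0.12, adjusted p = 0.640 from limma), and -0.23 with sex as a covariate (SE 0.15). CD45 is carried by all leukocytes. The transcription factor gene *Irf8* was at -0.15 (SE 0.07), the NADPH oxidase gene *Cybb* at -0.19 (SE 0.11) and *Fcer1g* at 0.12 (SE 0.11). *Irf8* has 2 probe sets, whose mean was at -0.06 (SE 0.07). The PU.1 gene, *Spi1*, read 7.25, 7.08 and 7.18 in WT and 7.20, 7.08 and 7.16 in cKO DRGs.

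Of 7 genes of class II antigen presentation, 0 had an adjusted or an unadjusted p under 0.05 by limma (median -0.02). Their mean signal was 8.15, 8.0 and 7.87 in WT and 8.20, 7.78 and 8.03 in cKO samples, highest in replicate 1 of both groups. The costimulatory receptor gene *Cd86* was at 0.15 (SE 0.11), *H2-DMb1* at -0.16 (SE 0.13), *H2-DMa* at 0.10 (SE 0.12) and *H2-Eb1* at -0.04 (SE 0.15). Of 6 microglia genes, 0 had an unadjusted p under 0.05 (median 0.01), with *Olfml3* at -0.13 (SE 0.08).

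Among 7 monocyte genes, 0 passed at an adjusted p under 0.05 and 1 was lower at an unadjusted p under 0.05 by limma. It was the fibronectin gene *Fn1*, which fibroblasts also express, at -0.24 (SE 0.08, adjusted p = 0.644). It lost its unadjusted call without WT replicate 1, WT replicate 3, cKO replicate 1 or cKO replicate 2, at values of -0.22, -0.22, -0.19 and -0.24. With sex as a covariate *Fn1* was at -0.34. *Ly6c2*, a surface marker of inflammatory monocytes, was at 0.09 (SE 0.06), the lysozyme gene *Lyz2* at 0.13 (SE 0.10) and *Plac8* at 0.12 (SE 0.12). The groups of *Ly6c2* and of *Fn1* did not overlap, in opposite directions (13.7% of all genes did not overlap). The median of the 7 was 0.04.

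Of 10 activation genes, 0 passed at an adjusted p under 0.05. At an unadjusted p under 0.05 by limma, 1 was higher and 1 lower in cKO DRGs, namely the chemokine gene *Ccl3* at 0.33 (SE 0.13, adjusted p = 0.652) and the costimulatory gene *Cd80* at -0.25 (SE 0.10, adjusted p = 0.652). *Ccl3* read 6.04, 6.10 and 6.43 in WT and 6.44, 6.66 and 6.46 in cKO samples, around the array medians. Its unadjusted p of 0.0367 became 0.228 with sex as a covariate, at 0.25, and was 0.117, 0.108, 0.112 and 0.0577 without WT replicate 1, WT replicate 2, cKO replicate 2 and cKO replicate 3. *Cd80* lost its unadjusted call without WT replicate 1, WT replicate 2, cKO replicate 1 or cKO replicate 2, at values of -0.21, -0.21, -0.20 and -0.24. With sex as a covariate *Cd80* was at -0.34. The related *Ccl4* was at 0.21 (SE 0.10) and the interleukin gene *Il6* at 0.32 (SE 0.15). With sex as a covariate *Ccl4* was at 0.38 (unadjusted p = 0.0137 from limma), and without cKO replicate 1 at 0.13. *Il6*, with a signal of 4.05 to 4.77, was at 0.20 without cKO replicate 2. In 3 of the 10, *Ccl3* and *Ccl4* among them, every cKO value was above every WT value. In 1, *Arg1*, every cKO value was below (13.7% of all genes did not overlap). The median of the 10 was 0.05.

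Markers of other cells that a ganglion can hold were listed beside these. By limma 0 genes of any list passed at an adjusted p under 0.05. The medians were -0.15 for 8 neutrophil genes, -0.10 for 7 T and B cell genes, -0.09 for 6 mast cell genes, 0.08 for 6 dendritic cell genes, 0.08 for the 5 lymphatic and -0.01 for 6 blood endothelial genes, 0.04 for 7 sensory neuron genes and 0.02 for 6 satellite glia genes. At an unadjusted p under 0.05, 4 genes of these lists were lower and 0 higher in cKO DRGs. Over all genes, 2.8% were lower and 2.67% higher. The 4 were 1 of 8 neutrophil, 1 of 7 T and B cell, 1 of 6 mast cell and 1 of 6 satellite glia genes. The dendritic cell, endothelial and sensory neuron lists held none. The neutrophil gene *Ly6g* was at -0.40 (SE 0.16) and the B cell gene *Cd79a* at -0.47 (SE 0.08). The mast cell gene *Cpa3* was at -0.48 (SE 0.08) and the satellite glia gene *Cdh19* at -0.33 (SE 0.09). Of the 6 satellite glia genes, 4 were positive and 2 negative, with *Kcnj10* at 0.20 (SE 0.08). The groups of *Cdh19* and of *Kcnj10* did not overlap, in opposite directions (13.7% of all genes did not overlap). The signal of *Cd79a*, 5.80 to 6.40, was below the array medians. The other B cell genes, *Cd79b* at -0.22 (SE 0.10) and *Ms4a1* at -0.27 (SE 0.16), were also negative. The T cell genes lay between -0.10 and 0.07. With sex as a covariate *Cdh19* was at -0.20 (unadjusted p = 0.135 from limma). *Ly6g* lost its unadjusted call without WT replicate 1, WT replicate 2, cKO replicate 1 or cKO replicate 2, at values of -0.40, -0.30, -0.30 and -0.34. With sex as a covariate, which compares cKO replicate 1 alone with the WT samples, *Ly6g* was at -0.60 and *Cpa3* at -0.57. The *Ly6g* signal of cKO replicate 3, 6.94, lay inside the WT range of 6.84 to 7.21. The dendritic cell gene *Xcr1* was at 0.30 (SE 0.14), with a signal of 5.74 to 6.35, below the array medians. The 8 skeletal muscle genes had a median of 1.22, and 3 of 8 were higher at an unadjusted p under 0.05.

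**Figure D4:**
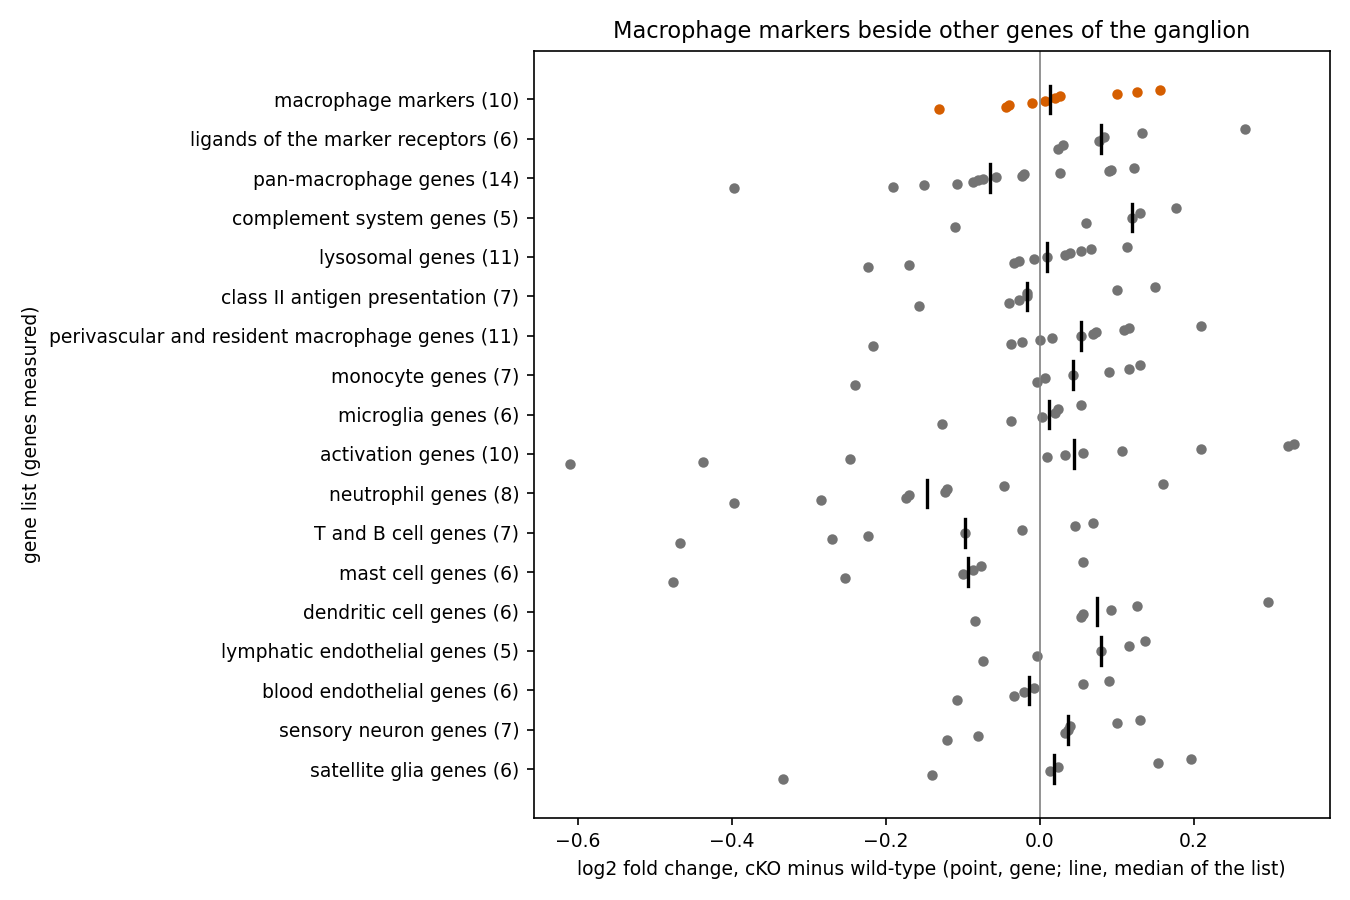
Log2 fold change (cKO minus WT, horizontal axis) of single genes (points) by list, with the median of each list as a line. The 10 macrophage markers (orange) lie between -0.13 and 0.16, around a median of 0.01.

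The precision of the comparison can be read from the intervals. For 9 of the 10 markers the 95% CI stayed within 0.5 of 0, as it did for 87.3% of all genes, the exception being *Cd163*. For 3 of them (*Csf1r*, *Mrc1* and *Ccr2*) it stayed within 0.25 of 0. The median standard error of the markers was 0.10, against 0.09 over all genes.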

How the data were processed

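The deposited values are log2 signals of Affymetrix Mouse Gene 2.0 ST arrays, 1 per sample, which the authors made with the Bioconductor package oligo by robust multichip average (background correction, quantile normalization between arrays and summary per probe set). The versions of these tools are not given in the sources used here. Quantile normalization removes any shift common to all probe sets of an array, so the values show relative signal. Gene symbols came from the platform annotation. A gene was represented by its single-symbol probe set with the highest mean, and the identifiers of all 10 markers had the same symbol in RefSeq.

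The 41345 probe sets were fitted together with lmFit and eBayes (limma 3.58.1, statmod 1.5.0 and R 4.3.3), with group as the only term, since the methods of the study name limma and no covariate. P values were 2-sided and were adjusted by the method of Benjamini and Hochberg across the 41345. Exact permutation tests used all 20 arrangements of the arrays. The code was tested on simulated data. The markers, the gene lists and the alternatives were chosen with earlier results of these data known. Genes named beside the markers are up to 4 per list with the smallest p, *Hdac4*, *Scn10a* and the 5 most like the markers' mean. *C1qc*, *Ccl2*, *Il34*, *Spi1*, *Prox1*, *Flt4*, *Tubb3*, *Prph*, *Adgre1*, *Maf*, *Itgam*, *Trem2*, *Tyrobp*, *Xist*, *Uty*, *Arg1*, *Retnla* and *Mertk* were named for their role or pattern after their values were seen. Listed genes not matched to a probe set of their own, 4 erythroid genes among them, are not analysed here. The 15 alternatives are given in the closing section.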

Additional observations from a re-analysis of the deposited data

How the results depend on the processing

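Under all 15 alternatives, 0 of 10 markers had an adjusted p from limma under the threshold and 0 of 10 had an unadjusted p under 0.05. Not every alternative could change these counts. The adjusted threshold of 0.1 leaves unadjusted p values as they were. Averaging the probe sets of a gene leaves the signal of every marker as it was, since each has 1 probe set. Signs of differences this small were not stable. With array weights 3 markers were positive instead of 6, with *Csf1r* at -0.020, *Aif1* at -0.030 and *Mrc1* at -0.012. *Cd68* was at 0.0059 after cyclic loess. With sex as a covariate, which compares cKO replicate 1 with the WT arrays, the median of the markers was 0.075, with *Cd163* at 0.047, *Ctss* at 0.12 and *C1qa* at -0.087. In that setting *Cybb* was at 0.0067, *Lamp1* at -0.0067, *C4b* at -0.07, *H2-DMb1* at 0.08, *H2-Eb1* at 0.20 and *Mertk* at 0.20. The cause of these changes was not tested.

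When each array was left out in turn, the log2 fold change ranged from -0.027 to 0.10 for *Csf1r*, -0.11 to 0.088 for *Cd68*, -0.057 to 0.093 for *Aif1*, -0.022 to 0.028 for *Mrc1*, -0.25 to 0.072 for *Cd163* and -0.12 to 0.017 for *Ctss*. It ranged from -0.025 to 0.22 for *C4b*, -0.012 to 0.19 for *H2-DMa*, -0.16 to 0.077 for *H2-Eb1*, -0.26 to 0.082 for *Mertk* and -0.017 to 0.13 for *Scn10a*. The markers without overlap between the groups then numbered 0 to 3. The 3, without cKO replicate 2, were *Ccr2*, *Csf1r* and *Lyve1*, where 22.4% of all genes did not overlap. Genes with an unadjusted p under 0.05 numbered 742 (without WT replicate 2) to 2057 (without cKO replicate 1) instead of 1215, and 788 without WT replicate 3. Probe sets with an adjusted p under 0.05 numbered 0 to 9, the 9 without cKO replicate 1, and none of these is a marker. Without cKO replicate 1, both remaining cKO samples have high *Uty* and all WT samples high *Xist*. Genotype and sex therefore cannot be told apart in that setting.

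With the replicate number as a block (replicate block), 732 genes had an unadjusted p under 0.05. The replicate numbers gave no sign of pairing, since same-numbered arrays deviated from their group means with correlations of -0.04, -0.08 and -0.08, and 0 of 6 arrays correlated best with the array of its own number. The block changed no call among the markers. *C5ar1*, *Ccl12*, *Ccl3*, *Cd79a*, *Cd86*, *H2-DMb1*, *Il6*, *Vsig4* and *Xcr1* have no value in the setting that kept only probe sets above the median signal. Signal over background is unknown, which limits what can be said of genes near the array medians.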

Other observations

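A few genes of macrophage states stood out in single samples and were chosen after their values were seen. *Arg1*, the arginase gene of alternatively activated macrophages, read 6.57, 6.53 and 7.78 in WT and 6.38, 6.36 and 6.31 in cKO DRGs. Its log2 fold change of -0.61 (SE 0.33, adjusted p = 0.706 from limma) came with a WT replicate 3 far above the other samples. Every cKO value lay below every WT value, where 13.7% of all genes did not overlap. Without WT replicate 3 the log2 fold change of *Arg1* was -0.20. *Retnla*, another gene of that state, read 6.54, 7.76 and 7.10 in WT and 6.56, 6.59 and 6.94 in cKO DRGs, and was highest in WT replicate 2 (log2 fold change -0.44, SE 0.30, adjusted p = 0.754 from limma). Without that sample it was -0.12, and -0.73 without WT replicate 1. The arrays with the highest signal thus differ between these genes.

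*Mertk*, a receptor gene for the uptake of apoptotic cells, read 9.08, 9.19 and 9.64 in WT and 9.50, 8.82 and 9.27 in cKO DRGs. Like *Cd163*, it was highest in WT replicate 3 and lowest in cKO replicate 2, whereas *C1qa* was highest in cKO replicate 2 and lowest in WT replicate 3 and cKO replicate 1. No test was made of this pattern.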
